A study of Mus musculus with 4 samples.

Results

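Nonsense-mediated mRNA decay (NMD) is the surveillance pathway that degrades transcripts on which a ribosome stops too early, and it also sets the level of some normal transcripts. The genes described here are 9 of its factors, namely Upf1, Upf2, Upf3a, Upf3b, Smg1, Smg5, Smg6, Smg8 and Smg9, taken by their exact symbols from 23420 named genes in the expression table. All 9 were found, 8 of them on autosomes and 1, Upf3b, on the X chromosome. RNA was measured in 4 libraries of pachytene spermatocytes from wild-type C57BL/6 male mice aged 23 weeks. The cells were sorted from testis by their DNA content and cultured for 24 h, either with DMSO, the solvent (Ctrl, 2 libraries), or with 10 µM AZ20, an inhibitor of the DNA damage response kinase ATR (2 libraries). No genotype or other treatment differed between the groups. The libraries of a group came from different mice, the cells of each mouse were divided between the conditions, and each library was made from 15000 cells.

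In NMD, UPF1, an RNA helicase, is recruited to the terminating ribosome and is phosphorylated by SMG1, a kinase of the same PIKK family as ATR. SMG8 and SMG9 are partners that hold SMG1 activity in check, while UPF2 and the UPF3 proteins connect UPF1 to exon junction complexes left on the mRNA by splicing. Phosphorylated UPF1 then attracts SMG6, an endonuclease that cuts the transcript, and SMG5, which helps to bring in the general decay machinery. UPF3B and UPF3A are paralogs. UPF3B is encoded on the X chromosome, which is silenced with the Y chromosome in pachytene spermatocytes by meiotic sex chromosome inactivation, whereas UPF3A is encoded on an autosome.

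The comparison asked which NMD factor transcripts changed when ATR was inhibited in cells that had already silenced their sex chromosomes. Upf3b rose, from 0.849 ± 0.977 TPM in Ctrl to 12.3 ± 4.61 TPM in AZ20 (SD, n = 2 each), and no other factor passed the test. Upf3a, the autosomal paralog, stood at 108 ± 11.8 TPM in Ctrl and 102 ± 0.727 TPM in AZ20 (SD, n = 2 each). The Upf3b share of the summed TPM of both paralogs was therefore 0.731% ± 0.809 in Ctrl and 10.7% ± 3.54 in AZ20 (SD, n = 2 each). TPM, a length-normalised level, divides the reads of a gene by its length and scales every library to the same total of 1000000, so levels can be compared between genes.

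Because the comparison turned on telling reads of the paralogs apart, the most alike ungapped stretch of 60 bases in their aligned coding sequences is shown, with the bases that differ in capitals. It runs from exon 2 into exon 3 of each gene in the GENCODE annotation of GRCm38, at chr8:13786251-13787421 (plus strand, 9 exons) for Upf3a and at chrX:37108965-37109150 (minus strand, 10 exons) for Upf3b, with the intron between them left out.
Upf3a: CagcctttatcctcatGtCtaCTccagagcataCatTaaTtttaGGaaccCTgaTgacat
Upf3b: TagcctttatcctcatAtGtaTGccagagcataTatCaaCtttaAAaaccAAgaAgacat
In this stretch 47 bases were identical and 13 differed. Over the whole coding sequences (1269 bases for Upf3a and 1419 for Upf3b), 58.9% of 1182 aligned base pairs were identical. The longest run of identical bases in the full transcripts was 15, against a read length of 150 bases. No window of 150 bases in the main transcript of any of the 9 factors occurred in a transcript of another gene, on either strand. Exons of other genes overlapped those of 2 factors, in each case on the opposite strand. Any 1 such gene covered at most 1.47% of the exon bases of Upf1 and at most 1.49% of those of Smg6.

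The promoters of Upf3a (chr8:13785365-13785664, plus strand) and Upf3b (chrX:37110273-37110572, minus strand) are shown because one of the paralogs was called and the other was not. Each sequence is from RefSeq on GRCm38.p6 and covers 250 bases before and 50 bases after the start of the gene, with the letters CTCGCGAG in capitals.
Upf3a: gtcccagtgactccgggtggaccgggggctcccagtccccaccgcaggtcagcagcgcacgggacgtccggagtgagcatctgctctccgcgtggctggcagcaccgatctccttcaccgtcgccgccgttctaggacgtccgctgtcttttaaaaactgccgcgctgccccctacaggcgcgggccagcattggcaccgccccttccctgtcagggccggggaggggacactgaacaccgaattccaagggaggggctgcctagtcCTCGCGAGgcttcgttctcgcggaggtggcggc
Upf3b: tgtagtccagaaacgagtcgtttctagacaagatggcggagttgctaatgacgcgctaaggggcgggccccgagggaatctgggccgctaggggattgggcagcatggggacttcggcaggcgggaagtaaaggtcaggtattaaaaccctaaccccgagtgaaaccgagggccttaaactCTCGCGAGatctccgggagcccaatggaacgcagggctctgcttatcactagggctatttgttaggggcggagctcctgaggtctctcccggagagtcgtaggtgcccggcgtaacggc
The letters CTCGCGAG, which read the same on both strands, were present once in each of these 2 promoters and in none of the other 7. They were found in 0.928% of 32544 promoters of the same length, and they were chosen for the search after the sequences had been read. The motif CCAAT, searched on both strands, was in 4 of the 9 promoters (Upf3a, Upf3b, Smg1 and Smg8) and in 37.4% of all promoters. GGGCGG was in 7 of the 9 and in 35.9% of all, and TGACGTCA was in none of the 9 and in 1.8% of all. The promoters of the 9 factors held 18 to 47 CpG dinucleotides, against a median of 7 over all promoters, of expressed genes or not. Their percentiles among all promoters ran from 70.1 (Smg8) to 98.5 (Upf1). Upf3a held 29 and Upf3b 22, at percentiles 87.0 and 76.7. Such matches describe letters in a window and do not show binding.

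**Figure D1:**
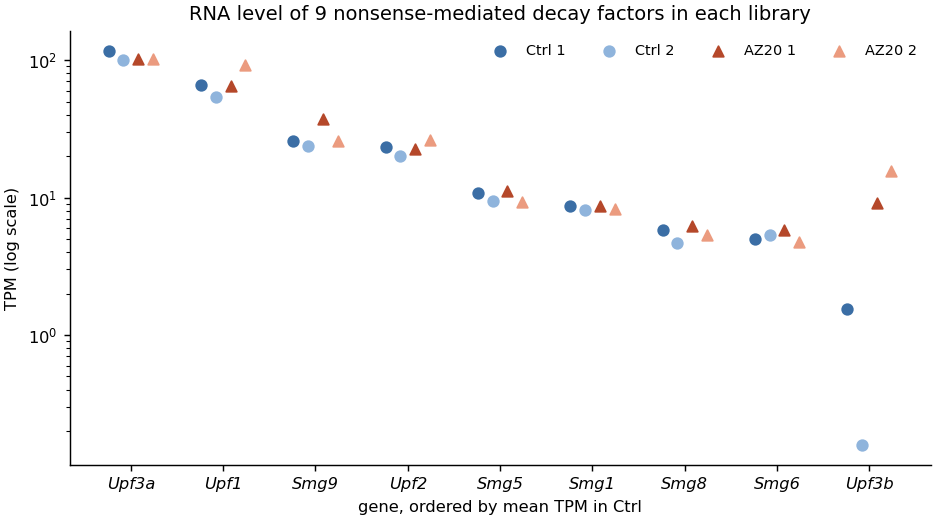
TPM of the 9 NMD factors (log axis) in each of the 4 libraries, circles for Ctrl and triangles for AZ20, with genes ordered by mean level in Ctrl. For Upf3b both AZ20 libraries (9.08 and 15.6 TPM) lie above both Ctrl libraries (1.54 and 0.158 TPM), and for each of the other 8 genes the groups overlap.

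Depth, as recovered from the TPM steps, was 13981338 (replicate 1) and 15866707 (replicate 2) gene reads in Ctrl, with 20266806 and 18555798 in AZ20, and p-values rest on 2 libraries per group. Markers of pachytene spermatocytes (Sycp1, Sycp3, Piwil1, Ccna1, Hspa2 and Hormad1) summed to 4862 to 6000.1 TPM. Of the defining markers of Leydig cells, 5 of 6 were at 0 reads in every library, and the other, Star, had 35 to 111 reads. Of the 6 Sertoli markers, 2 (Sox9 and Wt1) were at 0 reads in every library. Dhh had 32 to 56 reads, Cldn11 had 1 to 16, and Gata4 and Amh had at most 1. Round spermatid markers (Acrv1, Tnp1, Tnp2, Prm1 and Prm2) summed to 354 and 144 TPM in Ctrl replicates 1 and 2 and to 751 and 243 TPM in AZ20 replicates 1 and 2. Thus replicate 1 was the higher one in both groups. Within each pair the AZ20 sum was also above the Ctrl sum, while the groups overlapped. All 5 log2 changes were positive, with a median of 0.87 against 0.07 for all expressed genes, and 0 were called by limma. Over the 4 libraries the summed level ran from 0.449 to 1.54 TPM for 6 macrophage markers, from 1.39 to 2.003 TPM for 6 Sertoli markers, from 0.866 to 2.31 TPM for 6 Leydig markers, from 2.18 to 4.60 TPM for 5 peritubular myoid markers and from 8.26 to 21.2 TPM for 8 spermatogonia markers, mostly Uchl1.

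Upf1, the central helicase of the pathway, was at 66.3 and 53.9 TPM in Ctrl and at 64.5 and 91.7 TPM in AZ20. A single AZ20 library, replicate 2, lay above the Ctrl range, and the groups overlapped. The change of log2(TPM + 1), AZ20 minus Ctrl, was 0.36 ± 0.23 (SE), with a 95% interval of -0.20 to 0.91 (limma adjusted p = 0.753 over 10316 expressed genes). Within the pairs of libraries of the same number, the difference in log2(TPM + 1) of Upf1 was -0.04 and 0.76. Upf2, the adaptor between UPF1 and UPF3, was at 23.3 and 19.97 TPM in Ctrl and at 22.5 and 26.1 TPM in AZ20. Its groups overlapped too, and its log2 change was 0.16 ± 0.21 (SE, limma adjusted p = 0.897).

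Upf3a was at 117 and 99.995 TPM in Ctrl and at 101 and 102 TPM in AZ20. By TPM it was the highest of the 9 transcripts in both groups, at percentile 86.3 of expressed genes in Ctrl and 85.4 in AZ20. Both AZ20 values fell inside the range of the Ctrl libraries. The log2 change was -0.09 ± 0.17 (SE), and its 95% interval of -0.50 to 0.33 corresponds to a fold of 0.707 to 1.25 (limma adjusted p = 0.939). The gene lies at chromosome 8, 13785615 to 13799193, and the counted length recovered from its TPM was 1401 bases. Its exons in GENCODE hold 2057 bases, so its TPM and its rank above Upf1 depend on the length used.

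Upf3b, at chromosome X, 37091678 to 37110322 on the minus strand, was at 1.54 and 0.158 TPM in Ctrl and at 9.08 and 15.6 TPM in AZ20. These values rest on 34 and 4 reads in Ctrl and on 289 and 448 reads in AZ20. Exact Poisson 95% intervals, which cover counting error only, were 23.5 to 47.5 and 1.09 to 10.2 reads in Ctrl, and 257 to 324 and 407 to 491 reads in AZ20. Every AZ20 library was above every Ctrl library. Within each group the 2 libraries also differed by more than their counting error, with replicate 1 the higher in Ctrl and replicate 2 in AZ20.

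On the log2(TPM + 1) scale the change of Upf3b was 2.92 ± 0.44 (SE), with a 95% interval of 1.86 to 3.97 (limma adjusted p = 0.017). The ratio of mean TPM was 14.5, and it was 5.9 within pair 1 and 98.5 within pair 2. The ratio depended on which Ctrl library was used: it was 77.9 without Ctrl replicate 1 and 8.02 without Ctrl replicate 2. Without Ctrl replicate 2 the log2 change was 2.35 (limma adjusted p = 0.129), and without Ctrl replicate 1 it was 3.48 (limma adjusted p = 0.0187). The call was also lost with a pseudocount of 0.1 in place of 1 (log2 change 4.21, limma adjusted p = 0.104) and without either AZ20 library (limma adjusted p = 0.423 without replicate 1 and 0.546 without replicate 2, when no gene of all those tested was called).

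Summed over the expressed X-linked and the expressed Y-linked genes, though not for every gene, Ctrl replicate 1 held more reads than Ctrl replicate 2. Relative to library depth, its reads were 9.65 times those of Ctrl replicate 2 on Upf3b, 7.89 times on 8 expressed Y-linked genes (160 and 23 reads) and 1.29 times on 341 expressed X-linked genes. The part of this difference in the Upf3b values was not tested. Nor was that of the spermatid markers, whose summed level was higher in replicate 1 and, within each pair, in AZ20. In bulk RNA, fewer cells of a type and less RNA per cell cannot be told apart.

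Smg1 encodes the kinase that phosphorylates UPF1. It was at 8.73 and 8.07 TPM in Ctrl and at 8.76 and 8.29 TPM in AZ20, with overlapping groups. The log2 change was 0.02 ± 0.23 (SE), and its 95% interval of -0.53 to 0.56 corresponds to a fold of 0.695 to 1.48 (limma adjusted p = 0.993). Smg8, for a regulator of the SMG1 kinase, was at 5.85 and 4.66 TPM in Ctrl and at 6.21 and 5.32 TPM in AZ20 (log2 change 0.12 ± 0.26, SE, limma adjusted p = 0.946). Smg9, for the other regulator, was at 25.7 and 23.7 TPM in Ctrl and at 37.2 and 25.6 TPM in AZ20. Its highest value was thus in AZ20 replicate 1, while AZ20 replicate 2 lay inside the Ctrl range. The log2 change of Smg9 was 0.31 ± 0.24 (SE, limma adjusted p = 0.804), with within-pair differences of 0.51 and 0.11.

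Smg5, for the adaptor that binds phosphorylated UPF1, was at 10.7 and 9.45 TPM in Ctrl and at 11.2 and 9.24 TPM in AZ20. The groups overlapped, and the log2 change was 0.01 ± 0.24 (SE, limma adjusted p = 0.995). Smg6, for the endonuclease, was at 5.02 and 5.37 TPM in Ctrl and at 5.78 and 4.73 TPM in AZ20 (log2 change 0.01 ± 0.25, SE, limma adjusted p = 0.998). The AZ20 libraries of Smg6 lay on either side of the Ctrl libraries. With quantile normalization, which lowered the median change of all genes from 0.07 to -0.07, the log2 changes of Smg1, Smg5, Smg6 and Smg8 turned negative, between -0.22 and -0.12. None of the 4 genes passed the test in any fit.

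**Figure D2:**
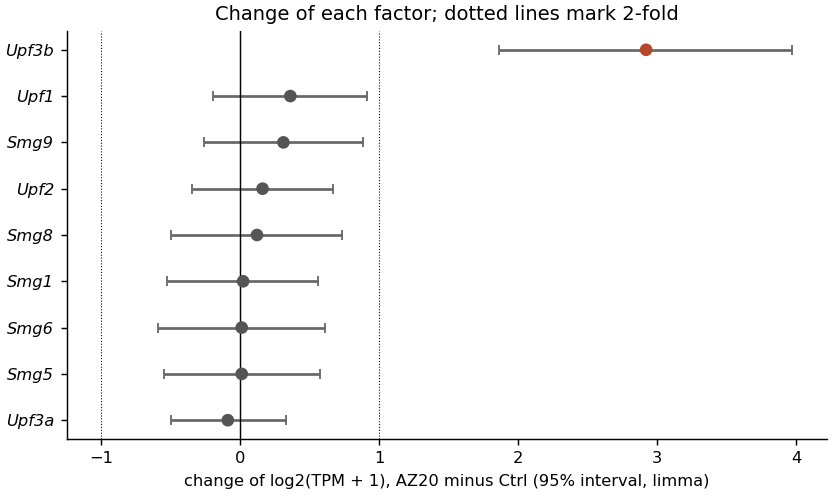
Change of log2(TPM + 1), AZ20 minus Ctrl, for each NMD factor, with the 95% interval from limma; the dotted lines mark a 2-fold change in each direction. The interval of Upf3b (1.86 to 3.97) lies beyond the 2-fold line, and the intervals of the other 8 genes include 0.

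Calls required an adjusted p under 0.05 (Benjamini-Hochberg, all expressed genes) and at least a 2-fold difference of log2(TPM + 1). By this rule 1 of the 9 factors was called higher, against 2.28% of all 10316 expressed genes, and 0 of 9 were called lower, against 0.0485% of all. None of the 8 autosomal factors was called in limma or in voom on recovered reads, and 0 of the 8 had an unadjusted limma p under 0.05, against 6.35% of autosomal genes. Of the 9926 autosomal genes tested, 0.151% were called in either direction. In 1 of the 9 factors both AZ20 libraries were above both Ctrl libraries, as they were in 26.4% of all expressed genes. The median log2 change of the autosomal factors was 0.07, beside 0.06 for all autosomal genes and 2.61 for the 341 expressed X-linked genes. Of those X-linked genes, 63.3% were called higher and 0 lower, and Upf3b ranked 154 among them by the size of its log2 change. Its call was thus shared with most genes of its chromosome.

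The summed TPM of the 8 autosomal factors was 262 and 225 in Ctrl and 257 and 273 in AZ20. The ratio of the group means was 1.09, and the difference was within the spread between libraries (two-sided exact permutation test, p = 0.667). With 2 libraries against 2 the smallest p this test can give is 0.333, so it cannot reach 0.05.

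In Ctrl the order of mean TPM was Upf3a, Upf1, Smg9, Upf2, Smg5, Smg1, Smg8, Smg6 and Upf3b. Of the 8 neighbouring pairs in this order, the libraries of Smg8 and Smg6 overlapped, while those of the other 7 pairs did not. Smg9 and Upf2 were separated by little, with 23.7 TPM as the lowest value of Smg9 and 23.3 TPM as the highest of Upf2. In AZ20 the order was the same except that Upf3b moved from the last place to the fifth, between Upf2 and Smg5. There the libraries of Smg9 overlapped those of Upf2, those of Upf3b overlapped those of Smg5, and those of Smg8 overlapped those of Smg6. Thus Upf3b in AZ20 was at a level that could not be told from Smg5 by its spread. Upf3b stood at percentile 6.61 of expressed genes in Ctrl and 52.6 in AZ20. Among X-linked genes it was at percentile 82.4 in Ctrl and 65.4 in AZ20, where their median was 6.45 TPM.

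**Figure D3:**
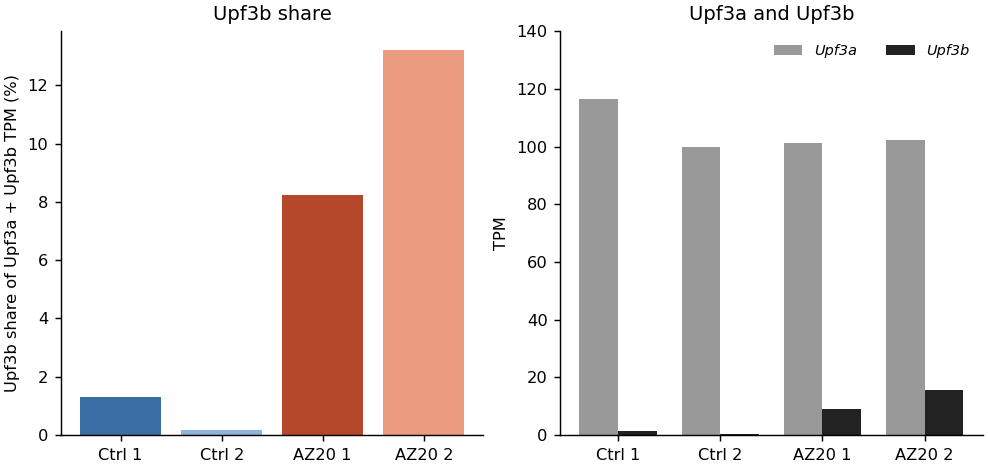
Left, share of Upf3b in the summed TPM of Upf3a and Upf3b (%) in each library; right, TPM of Upf3a (grey) and Upf3b (black). Upf3b made up 1.3% (Ctrl 1), 0.158% (Ctrl 2), 8.24% (AZ20 1) and 13.2% (AZ20 2), while the Upf3a bars lie between 99.995 and 117 TPM.

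The balance of the UPF3 paralogs was then measured within each library. Upf3b made up 1.3% and 0.158% of the summed TPM in Ctrl and 8.24% and 13.2% in AZ20. The share was higher in each AZ20 library than in each Ctrl library, by 10.0 percentage points on average, and the two-sided exact permutation test gave 0.333, the smallest p possible with 2 against 2. The TPM ratio of Upf3a to Upf3b was 75.7 and 631 in Ctrl and 11.1 and 6.55 in AZ20, so that Upf3a remained the more abundant paralog in all 4 libraries. The sum of the paralogs was 118.2 and 100.15 TPM in Ctrl and 110.3 and 117.8 TPM in AZ20, and the groups overlapped. The counted length of Upf3a (1401 bases) was shorter than its exons in GENCODE (2057 bases), and that of Upf3b was 2188 against 2344 bases. When the same reads were divided by the GENCODE lengths, the share of Upf3b was 1.78% and 0.217% in Ctrl and 11.0% and 17.3% in AZ20. Reads on the added bases were not counted. This rescaling therefore lowers Upf3a more than Upf3b and is not a share from a count on GENCODE exons.

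Other paralog pairs of the pathway were read the same way. Magohb, which with Magoh encodes a core protein of the exon junction complex, made up 51.9% and 47.2% of the pair in Ctrl and 46.9% and 47.6% in AZ20. Dcp1b, for a decapping cofactor, made up 92.6% and 83.3% of the Dcp1a and Dcp1b sum in Ctrl and 85.5% and 82.7% in AZ20. The groups overlapped in the shares of Magohb and of Dcp1b. Gspt2, an X-linked copy of the release factor gene Gspt1, had 0 and 2 reads in Ctrl and 7 and 0 reads in AZ20, too few to be tested.

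**Figure D4:**
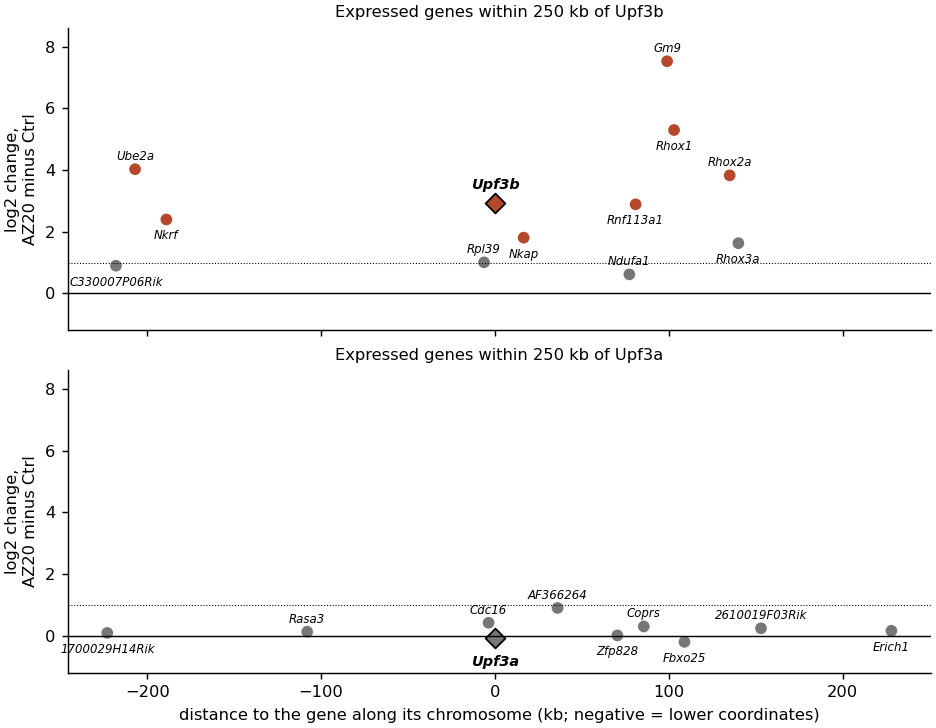
Log2 change (AZ20 minus Ctrl, log2(TPM + 1) scale) of expressed genes within 250 kb of Upf3b (top) and Upf3a (bottom) against distance in kb; diamonds are Upf3b and Upf3a, and coloured symbols are called higher. Around Upf3b 7 of 11 expressed genes were called higher, and around Upf3a 0 of 9 were.

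Upf3b was next set beside the genes around it. Of 17 genes annotated within 250 kb of Upf3b, 11 were expressed and 7 were called higher, which compares with 63.3% of X-linked genes. The called genes were Ube2a, Nkrf, Nkap, Rnf113a1, Gm9, Rhox1 and Rhox2a, with log2 changes of 1.81 for Nkap to 7.53 for Gm9. Nkap, 16.5 kb from Upf3b and transcribed from the opposite strand, was at 0 reads in both Ctrl libraries and at 2.21 and 2.81 TPM in AZ20. Rpl39, 6.28 kb away, was at 0 reads in Ctrl and at 1.57 and 0.580 TPM in AZ20 and was not called (limma adjusted p = 0.494). Ndufa1, for a subunit of mitochondrial complex I, differed from the rest in being high in both groups, at 124 and 152 TPM in Ctrl and at 179 and 251 TPM in AZ20 (log2 change 0.62, limma adjusted p = 0.414). C330007P06Rik and Rhox3a were the other expressed genes that were not called, with log2 changes of 0.90 and 1.63. The Rhox2, Rhox3 and Rhox4 genes have near-identical copies, so their values from uniquely aligned reads are uncertain. Gm15008, Sept6, Sowahd, Snora69, Akap14 and Rhox4a were below the expression filter.

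Around Upf3a, 9 of 10 genes within 250 kb were expressed and 0 were called by limma. Their log2 changes ran from -0.20 for Fbxo25 to 0.90 for AF366264. Cdc16, 3.68 kb from Upf3a and encoding a subunit of the anaphase-promoting complex, was at 8.08 and 17.3 TPM in Ctrl and at 15.4 and 17.2 TPM in AZ20. The others were 1700029H14Rik, Rasa3, Zfp828, Coprs, 2610019F03Rik and Erich1, with 4932443I19Rik below the filter.

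Genes with a similar pattern were found by the distance between their log2(TPM + 1) values over the 4 libraries. The 3 of 340 expressed X-linked genes nearest to Upf3b were Eif1ax, Ssxb2 and Tceanc, at distances of 0.752, 0.753 and 0.779, where the median distance was 2.78. Eif1ax, for a translation initiation factor, was at 2.25 and 0 TPM in Ctrl and at 11.8 and 10.5 TPM in AZ20. The values of Ssxb2 were 1.71 and 0.933 TPM in Ctrl and 9.70 and 16.5 TPM in AZ20. Tceanc was at 0.563 and 0.171 TPM in Ctrl and at 11.8 and 15.8 TPM in AZ20. The autosomal genes nearest to Upf3a were 1700025F24Rik, Cep63 and Lrrcc1 (distances 0.0874, 0.0933 and 0.118), each between 95.7 and 119 TPM in every library.

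**Figure D5:**
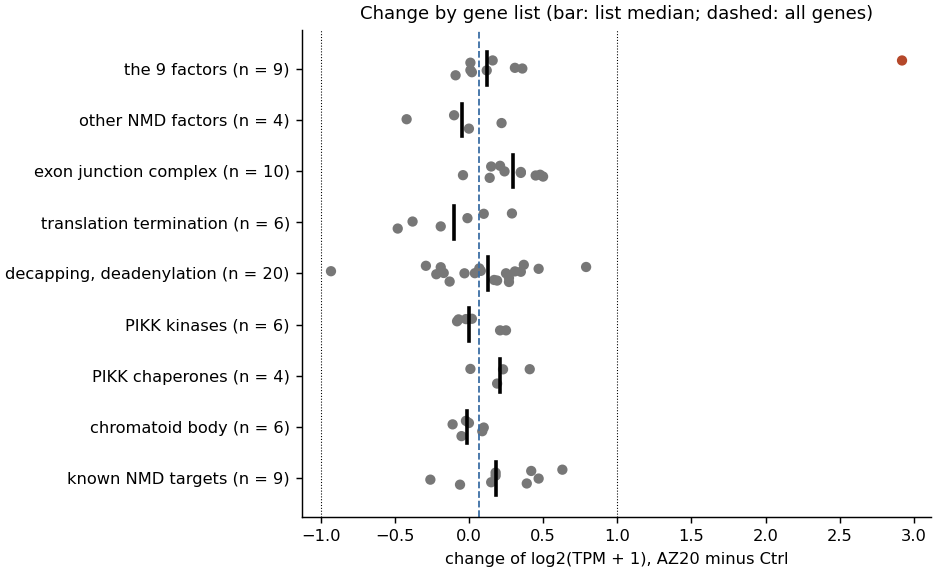
Change of log2(TPM + 1), AZ20 minus Ctrl, for the expressed genes of the 9 factors and 8 lists by role, 1 point per gene, with the list median as a black bar and the median of all expressed genes (0.07) as a dashed line; dotted lines mark 2-fold. Upf3b, at 2.92, is the only point plotted beyond a 2-fold line.

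The machinery around the 9 factors was read from lists of genes by role. The 5 lists were other NMD factors, the exon junction complex, translation termination, decapping and deadenylation, and Staufen proteins. They held 41 expressed genes, all on autosomes. Of these, 0 were called in either direction by limma, by voom on recovered reads or by any other fit of all 4 libraries. An unadjusted limma p under 0.05 was found for 2 (4.88%), near the 6.35% of autosomal expressed genes. The median log2 change of the 41 was 0.14, beside 0.06 for autosomal expressed genes.

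Among the other NMD factors, Dhx34, for a helicase that assists UPF1 phosphorylation, had the lowest log2 change (-0.42, limma adjusted p = 0.754) and Pnrc2, for an adaptor to decapping, had the highest (0.22, limma adjusted p = 0.820).

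In the exon junction complex list, 9 of 10 log2 changes were positive, with a median of 0.30, against 59.8% positive among all expressed genes, and 0 were called by limma. The highest was Rnps1 (0.50, limma adjusted p = 0.574) and the lowest was Sap18 (-0.04, limma adjusted p = 0.987). Magoh was at 87.0 and 66.6 TPM in Ctrl and at 104 and 109 TPM in AZ20, with an unadjusted limma p of 0.047 (adjusted p = 0.536). Eif4a3, for the helicase that anchors the complex on RNA, was at 116 and 115 TPM in Ctrl and at 139 and 129 TPM in AZ20. Both AZ20 libraries were above both Ctrl libraries in 6 of the 10 genes, against 26.4% of all expressed genes. The 6 were Eif4a3, Magoh, Rbm8a, Rnps1, Pym1 and Srrm1, in each case by less than the 2-fold threshold. The same count was 1 of 4 for other NMD factors, 1 of 6 for translation termination, 7 of 20 for decapping and deadenylation and 0 of 1 for Staufen. For the lists described below it was 1 of 6 PIKK kinases, 2 of 4 PIKK chaperones, 0 of 6 chromatoid body genes and 5 of 9 NMD targets.

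In translation termination, 6 of 9 genes were expressed, with log2 changes from -0.48 for Abce1, which recycles ribosomes, to 0.29 for Etf1, the stop codon release factor. Gspt1, the partner of Etf1, was at 21.4 and 17.2 TPM in Ctrl and at 19.3 and 22.3 TPM in AZ20. Of 21 decapping and deadenylation genes, 20 were expressed, with a median log2 change of 0.13. Edc3, an enhancer of decapping, had the lowest (-0.93, limma adjusted p = 0.574), from 4.39 and 7.32 TPM in Ctrl and 3.97 and 1.48 TPM in AZ20. Cnot6l, a deadenylase of the CCR4-NOT complex, had the highest (0.79, limma adjusted p = 0.350), from 5.90 and 4.47 TPM in Ctrl and 9.45 and 9.77 TPM in AZ20. Dcp1a was at or below 1.86 TPM in every library. Of the Staufen genes, Stau1 was expressed (log2 change 0.12, limma adjusted p = 0.934), and Stau2 was not.

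SMG1 shares its kinase family with the target of AZ20. Atr itself was at 93.2 and 85.1 TPM in Ctrl and at 80.9 and 87.5 TPM in AZ20 (log2 change -0.08, limma adjusted p = 0.945), so its level in TPM was above that of Smg1 in every library. Mtor, for the growth-regulating kinase, was at 11.8 and 13.5 TPM in Ctrl and at 12.2 and 12.7 TPM in AZ20. Atm and Prkdc, for the DNA damage kinases, and Trrap, for the member without kinase activity, were at or below 3.04 TPM. None of the 6 PIKK genes was called by limma, none had an unadjusted p under 0.05, and their log2 changes lay between -0.08 and 0.25. Of 5 genes for the chaperones that assemble PIKK kinases, 4 were expressed and 0 were called by limma, with log2 changes from 0.01 for Ruvbl2 to 0.41 for Ruvbl1. Telo2 was below the filter.

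In male germ cells, UPF proteins and SMG6 are found with TDRD6 in the chromatoid body, a cytoplasmic RNA granule. Tdrd6 was at 26.5 and 17.5 TPM in Ctrl and at 24.4 and 22.1 TPM in AZ20 (log2 change 0.10, limma adjusted p = 0.955). The 6 chromatoid body genes had log2 changes from -0.11 for Ddx25 to 0.10 for Tdrd6, and 0 were called by limma or had an unadjusted p under 0.05.

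Transcripts known as NMD targets in other cells were read as an outcome of the pathway. Of 12, 9 were expressed, 7 of these had positive log2 changes and 0 were called by limma, with a median of 0.18, beside 59.8% positive and a median of 0.07 for all expressed genes. Gas5, a snoRNA host transcript that NMD degrades, had the highest change, from 65.2 and 48.9 TPM in Ctrl and 87.3 and 88.3 TPM in AZ20 (log2 change 0.63 ± 0.20, SE, limma adjusted p = 0.372). The lowest was Arc, an activity-regulated gene (-0.26, limma adjusted p = 0.887). These levels measure total RNA of each gene and do not separate its synthesis from its decay.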

How the data were processed

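RNA-seq libraries were made from total RNA with a low-input kit and sequenced as paired 150-base reads. According to the labels and methods, the authors trimmed reads (Trimmomatic 0.39), aligned them to GRCm38 with STAR 2.5.4b keeping unique alignments, counted them on the UCSC refGene annotation with featureCounts 2.0.1 and deposited TPM for 1 column per library. Unique alignment lowers the values of genes with near-identical copies, and low-input amplification adds noise at few reads.

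From these TPM, whole reads were recovered for 16857 genes above 0, since each gene has a single length in all columns. Every value was whole within 0.001 reads, and a factor common to the 4 values of a gene was set from its annotated length where that was close enough; for 7251 genes the smallest factor was kept, and for the 9 factors it was 1. Of the table's lines, 92 named no gene and were left out. Genes were placed with GENCODE vM21 and RefSeq. The 10316 genes averaging over 1 TPM in at least 1 group were called expressed and fitted as log2(TPM + 1) with limma 3.58.1 in R 4.3.3 (variance trend), after a test on simulated data. A fold on this scale understates the change of low genes. Python 3.11.15 with scipy 1.17.1, numpy 2.4.6 and pandas 2.3.3 gave the other values. The intervals of reads cover counting error only.

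The factors, gene lists and naming rule were chosen with earlier results of these data known, and no list was tested as a set. Named genes were the 9 factors, called genes, chosen paralogs, the PIKK kinases, Tdrd6, the highest and lowest change of each list, the genes within 250 kb of Upf3a and Upf3b, and the 3 genes nearest to each in level. The rule also names 1 further gene, which is not reported here. Eif4a3, Rbm8a, Pym1, Srrm1 and the motifs were chosen beyond it, after their values were seen.

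The methods state that cells of a mouse were split between conditions, so libraries of the same number were taken as pairs. Their deviations from the group means correlated at 0.231 over 9926 autosomal and 0.183 over 341 X-linked expressed genes. The pair was used as a block in an alternative fit. Other alternatives were pseudocounts of 0.1 and 0.01, no filter, a mean TPM above 5, quantile normalization, no trend, voom on recovered reads and leaving out each library. Voom with the block was added after seeing the data.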

Additional observations from a re-analysis of the deposited data

How the results depend on the processing

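Upf3b kept a positive log2 change in 13 of 13 alternatives (2.35 to 4.54) and its call in 7 of them. The sign carries little weight as a check, since both AZ20 libraries lay above both Ctrl libraries. With no filter, a mean TPM above 5, no trend or the block, the log2 change equals the main 2.92 by construction. The log2 change of Upf3b was 2.92 with the replicate block (paired libraries, limma adjusted p = 1.03e-08). It was 4.52 with voom (limma adjusted p = 0.0341) and 4.07 with voom and the block (limma adjusted p = 8.37e-04). Within the pairs the differences in log2(TPM + 1) were 1.99 and 3.84, far apart for a block SE of 0.34. The small p of the block thus rests largely on the variance that limma takes from all genes, not on agreement between the pairs. The main SE of 0.44 likewise takes part of its variance from all genes, so the main adjusted p of limma (0.017) does not rest on the spread of Upf3b alone. The block changed no call among the factors. The number of factors called higher fell from 1 to 0 with no filter on low values, with a pseudocount of 0.1 and with a pseudocount of 0.01, where the adjusted p of Upf3b was 0.159, 0.104 and 0.206 in limma. Leaving out 1 library at a time gave 0 to 1 factors called higher, with 1 only without Ctrl replicate 1. Without either AZ20 library, 0 of all genes tested were called by limma, so these fits say little about Upf3b alone. Over all expressed genes 235 were called higher and 5 lower, against 424 and 23 with the replicate block, 330 and 3 with voom and the block, 229 and 1 with voom, 198 and 1 with no filter, 184 and 1 without Ctrl replicate 1 and 158 and 1 without Ctrl replicate 2. No factor was called lower in any fit. The cause of the lost calls was not tested.

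The Upf3b share was higher in AZ20 by 7.51 to 12.5 percentage points when 1 library was left out, and by 9.26 with quantile normalization. Within pairs (block) the mean difference was 10.0, which equals the main value by arithmetic. The summed TPM of the autosomal factors differed by 2.93 to 40.1, beside 21.5 with all libraries. Uncalled changes near 0 reversed their sign. With quantile normalization they were -0.19 for Smg1, -0.18 for Smg5, -0.22 for Smg6 and -0.12 for Smg8. With voom they were -5.0e-04, -0.0035 and -0.01 for Smg1, Smg5 and Smg6, and with voom and the block -0.0024, -0.01 and -0.01. When 1 library was left out, changes ran from -0.20 to 0.02 for Upf3a, -0.03 to 0.07 for Smg1, -0.11 to 0.14 for Smg5, -0.11 to 0.13 for Smg6 and -0.02 to 0.26 for Smg8. The 34 and 4 Upf3b reads of the Ctrl libraries limit how well its fold is known.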
